A study of Mus musculus with 12 samples.

Results

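Gm13394, Gm6969, Gm5514 and Atp6v0c-ps2 are 4 processed pseudogenes of the mouse whose RNAseq counts split completely by whether the cells carried H3.1K27M. They are 4 of the 54532 genes in the count tables and 4 of the 9785 genes annotated as processed pseudogenes. They were chosen by name because of this split, so that their levels by H3.1K27M state are given here as a description with no test. Gm13394, Gm5514 and Atp6v0c-ps2 were high in all 6 samples with H3.1K27M, while Gm6969 was high in all 6 without it.

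The 12 samples were brainstem progenitors of postnatal day 3 to 5 pups, labelled as strain C57BL/6 and as Nestin TVA; p53 floxed, and grown with EGF and FGF. The nestin promoter drives the receptor Tv-a in these mice, so that RCAS viruses enter nestin-expressing cells only. All groups received an *ACVR1* virus, either *ACVR1* WT or *ACVR1* R206H, a mutation found in diffuse intrinsic pontine glioma, and the other factor was H3.1K27M, a mutant histone H3. The groups were *ACVR1* WT, *ACVR1* WT with H3.1K27M, *ACVR1* R206H, and *ACVR1* R206H with H3.1K27M, with 3 samples in each, and no Cre virus is named for these cells, so that the floxed p53 is shared by all. No label ties a sample to an animal, litter or culture, and no sample was left without an *ACVR1* virus. A difference in genome between the cultures that received H3.1K27M and those that did not therefore cannot be told apart from an effect of H3.1K27M itself. No label names a wild-type histone or an empty virus in place of H3.1K27M, so that the effect of an added virus cannot be told apart either.

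A processed pseudogene arises when a messenger RNA is copied back into DNA and inserted elsewhere in the genome, so that it lacks the introns of its parent gene and usually its promoter. Insertions of this kind can differ between individuals and strains. H3K27 methylation is a repressive chromatin mark laid down by PRC2, and the K27M mutation is known to lower it across the genome. Sequence reads from a young pseudogene and its parent can be separated only where the sequences differ.

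The parent of each pseudogene was the protein-coding gene with the best sequence match to it. Gm13394 (ENSMUSG00000083773) lies on the minus strand of mm10 at chr2:28933610-28934609, inside an intron of Cfap77, and matched Gapdh, a glycolytic enzyme, with 99.9% identity over 1000 bases. Gm6969 (ENSMUSG00000066553) lies on the minus strand at chr12:24638669-24639010 and matched Cox7a2l, which helps to assemble respiratory supercomplexes in mitochondria, with 97.7% identity over 342 aligned positions. Gm5514 (ENSMUSG00000045104) lies on the plus strand at chr19:21937380-21938381 and matched Ldhb, a lactate dehydrogenase subunit, with 98.0% identity over 1002 bases. Atp6v0c-ps2 (ENSMUSG00000080242) lies on the plus strand at chr6:37806086-37806550 and matched Atp6v0c, the proteolipid of the V-ATPase proton pump, with 99.8% identity over 465 bases. Gm6969, Gm5514 and Atp6v0c-ps2 overlapped no other annotated gene. The matched bases of all 4 parents were coding sequence.

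A stretch that separates each pseudogene from its parent is shown, because inside the matched bases the reads of both differ only at such bases, which are in capitals. They are in RNA sense, 5′ to 3′, from the GENCODE M21 transcripts of GRCm38 (mm10), and positions are counted from 1 at the 5′ end of the pseudogene. Gm13394 differed from Gapdh at A346C alone (the base of the parent first), a synonymous change in exon 4 of the 7 exons of Gapdh.
Gm13394: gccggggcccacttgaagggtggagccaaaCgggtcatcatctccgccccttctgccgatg
Gapdh: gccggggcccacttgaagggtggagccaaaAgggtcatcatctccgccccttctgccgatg
The stretch of Gm13394 is chr2:28934234-28934294 on the minus strand, and that of Gapdh joins exons 3 and 4 of chromosome 6.

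Gm6969 held 6 more bases than Cox7a2l, at its positions 214 to 219, followed by T220A, and differed again at C309T.
Gm6969: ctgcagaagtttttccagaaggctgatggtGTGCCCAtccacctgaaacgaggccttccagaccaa
Cox7a2l: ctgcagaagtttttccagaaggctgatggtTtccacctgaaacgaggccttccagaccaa
The stretch of Gm6969 is chr12:24638762-24638827 on the minus strand, and that of Cox7a2l joins exons 2 and 3 on chromosome 17. As background, the C57BL/6 allele of Cox7a2l is known to lack 6 bases of coding sequence that many other mouse strains carry, and mm10 is the C57BL/6J genome.

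Atp6v0c-ps2 differed from Atp6v0c at T111C alone, a synonymous change.
Atp6v0c-ps2: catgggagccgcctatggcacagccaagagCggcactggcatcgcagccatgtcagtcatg
Atp6v0c: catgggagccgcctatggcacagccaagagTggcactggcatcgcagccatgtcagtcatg
The stretch of Atp6v0c-ps2 is chr6:37806166-37806226 on the plus strand, and that of Atp6v0c lies in exon 2 on chromosome 17.

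Gm5514 carried 20 substitutions relative to Ldhb, 15 of them synonymous, and 1 stretch with 4 of them close together is shown.
Gm5514: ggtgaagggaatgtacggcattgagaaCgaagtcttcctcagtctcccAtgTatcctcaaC
Ldhb: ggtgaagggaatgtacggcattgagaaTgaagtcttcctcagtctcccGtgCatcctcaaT
The stretch of Gm5514 is chr19:21938210-21938270 on the plus strand, and that of Ldhb joins exons 7 and 8 on chromosome 6.

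How much of each gene could be assigned was read from the annotated transcripts by sliding windows. Of the 926 windows of 75 bases in Gm13394, 75 were found in no other annotated gene, which are those that cover its single differing base. Gapdh had 142 such windows of 1198, and 0 of the 928 that lie within its coding sequence. Atp6v0c-ps2 had 75 of 391 and Gm6969 had 115 of 268, whereas Gm5514 had 722 of 928. Within its annotated bases, a read could thus be assigned to Gm13394 or Atp6v0c-ps2 only over 1 base, but to Gm5514 over most of its length. Reads that run past the ends of a pseudogene, or whose mate does, could be assigned too and are not in these windows. Read length is not given in the sources used here, and variants carried by the cells were not examined because the deposited files hold counts and not reads.

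**Figure D1:**
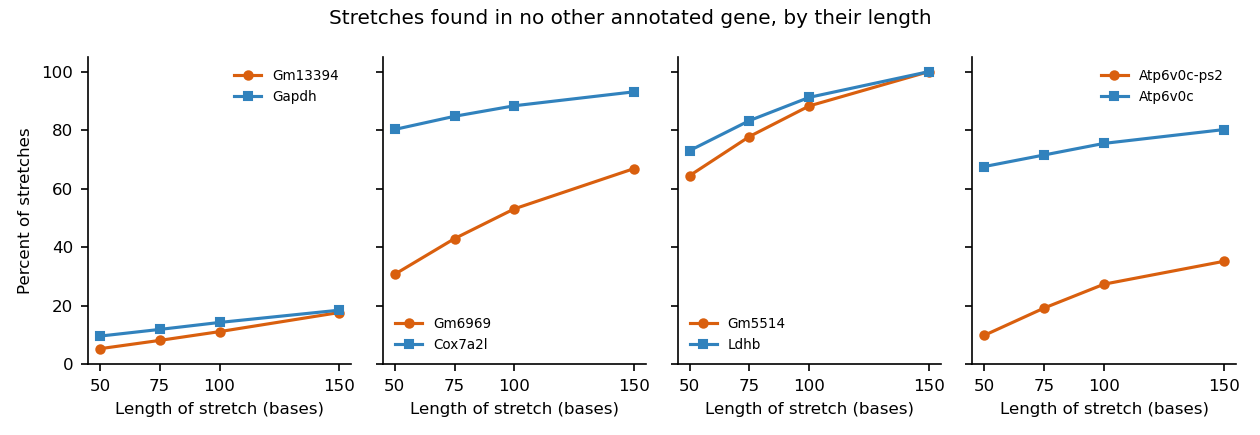
Percent of all stretches of a pseudogene (orange circles) or its parent (blue squares) that occur in no other annotated gene, against the length of the stretch in bases (50, 75, 100 and 150). Gm13394 and Gapdh stayed under 20% at each length, while Gm5514 and Ldhb reached 100% at 150 bases.

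Total counts per sample ran from 19315020 to 26456257. Each group has 3 samples that the labels number as replicates, and p-values measure the spread between these samples. The study's methods count cell lines of separate litters as replicates in culture experiments, but the labels tie none of these samples to a line or litter, so that the spread may in part be technical. Hist1h3a, a mouse gene of the H3.1 family, had 0 to 2 counts without H3.1K27M and 304 to 1479 with it, in the direction of the labels. Acvr1 had 50.9 ± 3.91 CPM (SD, n = 3) in *ACVR1* WT, 232 ± 115 in *ACVR1* WT with H3.1K27M, 93.8 ± 17.3 in *ACVR1* R206H and 872 ± 271 in *ACVR1* R206H with H3.1K27M. It was thus called higher with H3.1K27M over both forms (adjusted p = 7.5e-06 in edgeR) and with R206H among the samples with H3.1K27M (adjusted p = 0.00045 in edgeR), so that its level moved with both comparisons, and its part in the levels of the pseudogenes was not tested. Gene counts cannot show which *ACVR1* form was delivered. Replicate 1 of *ACVR1* WT stood apart from its group (chi-square per degree of freedom of 75.3 and 129 against the other replicates, which differed from each other by 17.0). Without it the log2 differences by H3.1K27M among the *ACVR1* WT samples were 8.35 for Gm13394, -4.92 for Gm6969, 5.49 for Gm5514 and 2.22 for Atp6v0c-ps2. In bulk samples, fewer cells of a type and less RNA per cell cannot be told apart.

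Gm13394, the copy of Gapdh, had nearly no reads in one state and many in each sample of the other. Without H3.1K27M its counts were 5, 5 and 3 with *ACVR1* WT and 1, 5 and 3 with *ACVR1* R206H. With H3.1K27M they were 1765, 1303 and 1675 with *ACVR1* WT and 1417, 1677 and 2126 with *ACVR1* R206H. No sample lay between 5 and 1303 counts. In CPM, counts scaled to a common library size with TMM factors, it had 0.183 ± 0.0835 (SD, n = 6) without and 70.2 ± 6.21 (SD, n = 6) with H3.1K27M. The summed counts of 22 and 9963, scaled for the summed library sizes with TMM factors, gave a ratio of 387 (exact 95% interval 256 to 618, for counting error only). The fitted log2 difference was 8.26 with *ACVR1* WT and 8.89 with *ACVR1* R206H.

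Gm5514, the copy of Ldhb, showed the same direction from a low but measurable base. Without H3.1K27M its levels were 0.569, 0.467 and 0.293 CPM with *ACVR1* WT and 0.700, 0.879 and 0.533 CPM with *ACVR1* R206H. With H3.1K27M they were 17.8, 17.4 and 16.2 CPM with *ACVR1* WT and 15.6, 22.6 and 25.2 CPM with *ACVR1* R206H. No sample without H3.1K27M had more than 17 counts and none with it fewer than 329. The ratio of summed counts, scaled for library size in the same way, was 33.8 (exact 95% interval 26.6 to 43.5). The log2 difference was 5.26 with *ACVR1* WT and 4.92 with *ACVR1* R206H.

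Atp6v0c-ps2, the copy of Atp6v0c, was expressed in all 12 samples, and its difference was one of level. Without H3.1K27M it had 9.39, 9.49 and 8.99 CPM with *ACVR1* WT and 8.90, 8.58 and 9.10 CPM with *ACVR1* R206H. With H3.1K27M it had 44.1, 42.4 and 41.2 CPM with *ACVR1* WT and 45.3, 54.1 and 61.1 CPM with *ACVR1* R206H. The groups did not overlap, and the ratio of summed counts, scaled for library size, was 5.32 (exact 95% interval 4.99 to 5.68), the smallest of the 4. The log2 difference was 2.21 with *ACVR1* WT and 2.61 with *ACVR1* R206H.

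Gm6969, the copy of Cox7a2l, ran the other way. Without H3.1K27M it had 36.3, 33.7 and 26.2 CPM with *ACVR1* WT and 30.7, 31.7 and 31.4 CPM with *ACVR1* R206H. With H3.1K27M it had 0.900, 0.904 and 1.11 CPM with *ACVR1* WT and 0.760, 1.49 and 1.79 CPM with *ACVR1* R206H. Between 16 and 48 counts remained in each sample with H3.1K27M, so that it was low and not absent. The ratio of summed counts, scaled for library size, was 26.8 (exact 95% interval 22.9 to 31.5). The log2 difference was -5.02 with *ACVR1* WT and -4.48 with *ACVR1* R206H.

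**Figure D2:**
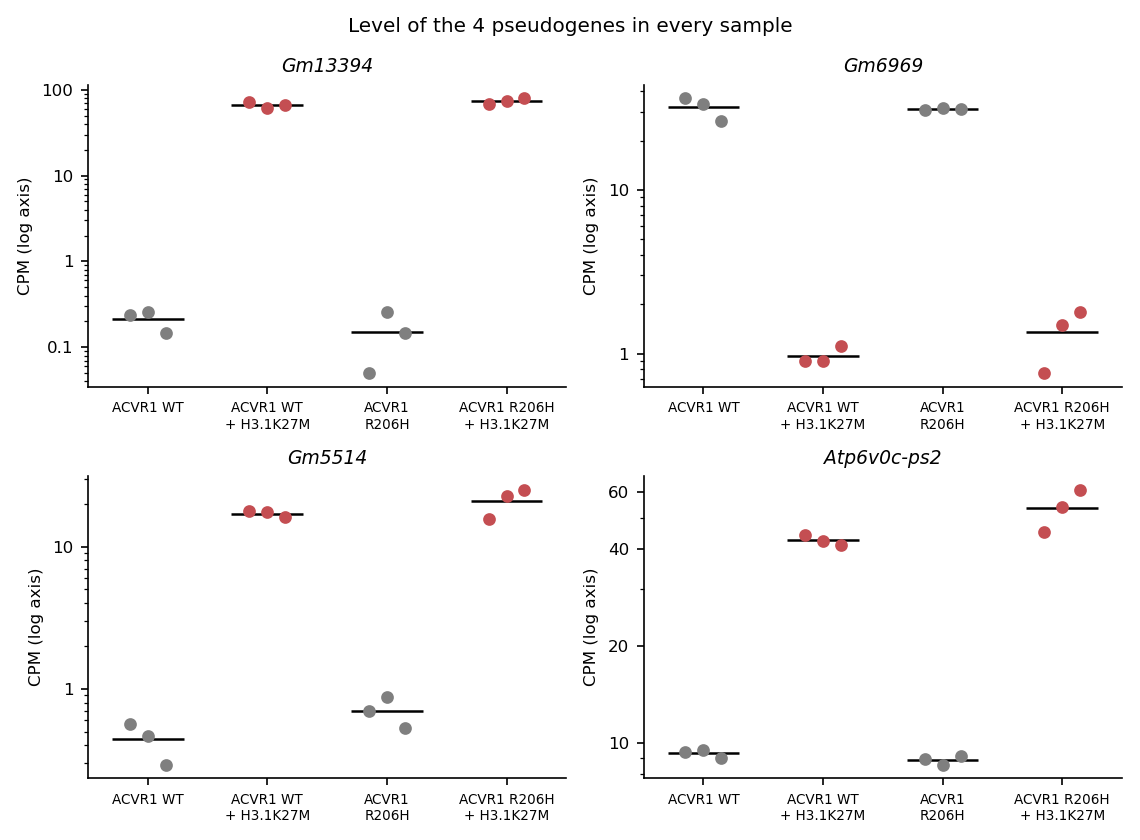
CPM (log axis) of each pseudogene in each of the 12 samples by group, grey without and red with H3.1K27M, with a line at the mean of each group (n = 3). Gm13394, Gm5514 and Atp6v0c-ps2 were higher in every sample with H3.1K27M and Gm6969 in every sample without it, and the groups of one H3.1K27M state lay close together.

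Per kilobase of the pseudogene, the order of the levels differed between the states. Without H3.1K27M, Gm6969 was highest with 92.6 ± 9.84 CPM per kilobase (SD, n = 6), then Atp6v0c-ps2 with 19.5 ± 0.713, Gm5514 with 0.572 ± 0.200 and Gm13394 with 0.183 ± 0.0835. With H3.1K27M, Atp6v0c-ps2 was highest with 103 ± 16.9 CPM per kilobase, then Gm13394 with 70.2 ± 6.21, Gm5514 with 19.1 ± 3.85 and Gm6969 with 3.39 ± 1.18. Neighbours in either order did not overlap between samples. These levels are per base of the whole pseudogene and not per base that can be assigned.

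Within *ACVR1* R206H with H3.1K27M, each of the 4 was highest in replicate 3 and lowest in replicate 1. The same held for the number of genes with a count, which was 23840, 24749 and 25207 in replicates 1, 2 and 3, and whether this bears on the levels was not tested. Over all 12 samples, Pearson's r of log2 CPM between pairs of the 4 was -0.985 to -0.971 for pairs with Gm6969 and 0.988 to 0.992 for the others, a description of samples that share the H3.1K27M split. The genes most alike to Gm13394 by this measure were Cybrd1, Ntn4 and Col4a1 (r = 0.994 to 0.995, n = 12 samples), and to Gm6969 were Lancl2, Enpp1 and Emp1 (r = 0.987 to 0.988). Those most alike to Gm5514 were Nr2e1, Lynx1 and Icam1 (r = 0.994 to 0.997), and to Atp6v0c-ps2 were Nkx2-1, Sfta3-ps and Armcx3 (r = 0.995 to 0.996). Cybrd1, a ferric reductase, had a mean of 87.0 CPM without and 260 CPM with H3.1K27M, so that a like shape went with a much smaller difference than in Gm13394.

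The parents were tested in the same fits, with edgeR's quasi-likelihood test and Benjamini-Hochberg adjustment over all genes. By H3.1K27M, 23.0% of 15385 genes were called among the *ACVR1* WT samples, 56.5% of 15482 among the *ACVR1* R206H samples and 53.6% of 15445 over both, and 3 of the 4 parents were called over both. Ldhb rose with Gm5514, from 294 ± 15.7 to 435 ± 23.2 CPM (SD, n = 6), or by 0.56 on the log2 scale (SE 0.0479, adjusted p = 1.7e-06). Cox7a2l rose where Gm6969 was low, from 107 ± 6.73 to 137 ± 5.13 CPM, or by 0.36 on the log2 scale (SE 0.0462, adjusted p = 4.4e-05). Atp6v0c fell where Atp6v0c-ps2 was high, from 16.8 ± 1.34 to 11.7 ± 1.05 CPM, or by -0.53 on the log2 scale (SE 0.0683, adjusted p = 4.8e-05). Gapdh was not called over both (553 ± 78.4 and 492 ± 32.9 CPM, log2 fold change -0.17, adjusted p = 0.13), and passed without replicate 2 of *ACVR1* WT (adjusted p = 0.035). Gapdh was called among the *ACVR1* R206H samples (-0.24, adjusted p = 0.016), a call lost without replicate 3 of *ACVR1* R206H (0.071), without replicate 2 of *ACVR1* R206H with H3.1K27M (0.065) and in 1 fit of all 12 samples (0.15). Among the *ACVR1* WT samples it was at -0.08 (adjusted p = 0.74), and at 0.09 without replicate 1 of *ACVR1* WT. Among the *ACVR1* WT samples Ldhb (0.63, adjusted p = 0.0059) kept its call without any one replicate. There Cox7a2l (0.38, adjusted p = 0.020) lost its call without replicate 2 of *ACVR1* WT or any replicate of *ACVR1* WT with H3.1K27M (0.064 to 0.085), and Atp6v0c (-0.55, adjusted p = 0.023) without replicate 2 of *ACVR1* WT or replicate 2 or 3 of *ACVR1* WT with H3.1K27M (0.080 to 0.10).

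The reads of each parent and its pseudogene were then summed. For Cox7a2l and Gm6969 the sum of both was 138.7 ± 9.46 CPM without and 138.6 ± 5.18 CPM with H3.1K27M (SD, n = 6), while the share in Gm6969 was 22.8% ± 1.35 and 0.836% ± 0.283. The lower level of Gm6969 thus went with a higher level of Cox7a2l of about the same size, and whether reads of Cox7a2l itself were placed on Gm6969 was not tested. For Gapdh and Gm13394 the sum was 554 ± 78.4 and 562 ± 30.2 CPM, and the share in Gm13394 rose from 0.0340% ± 0.0177 to 12.5% ± 1.53. The spread of that sum without H3.1K27M was larger than the whole level of Gm13394 with it, so that the sums could not show whether Gm13394 came on top of Gapdh.

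The other pairs had larger sums with H3.1K27M. Ldhb and Gm5514 together went from 295 ± 15.7 to 454 ± 23.3 CPM, and the share in Gm5514 went from 0.195% ± 0.0674 to 4.22% ± 0.852. Atp6v0c and Atp6v0c-ps2 together went from 25.9 ± 1.51 to 59.7 ± 7.86 CPM, and the share in the pseudogene from 35.1% ± 1.71 to 80.2% ± 2.82. With H3.1K27M the pseudogene thus took more of the reads of this pair than the parent in each sample, from 76.5% (exact binomial 95% interval 74.2% to 78.6%) to 84.4% (82.7% to 86.0%). These are shares of reads that could be assigned, not of molecules, and the intervals cover counting error only.

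**Figure D3:**
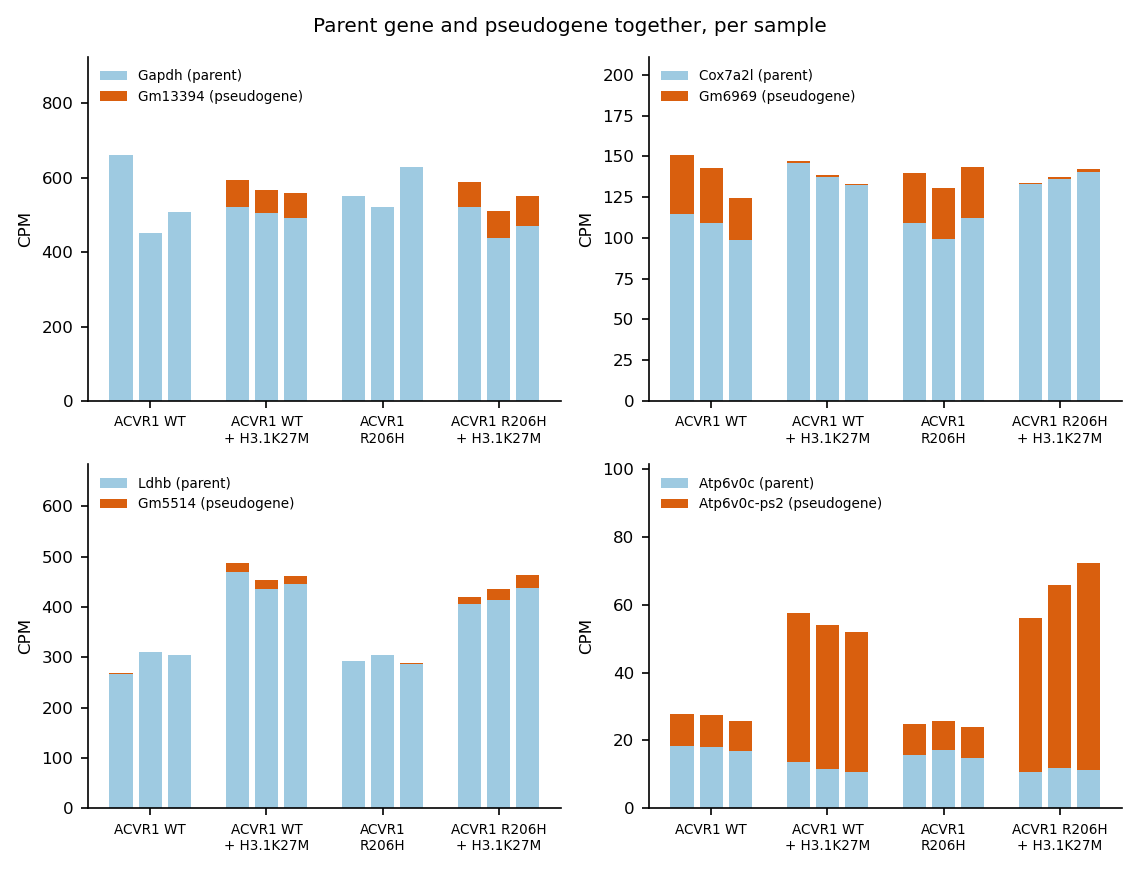
CPM of each parent (blue) with that of its pseudogene stacked on top (orange), 1 bar per sample in the 4 groups. The bars of Cox7a2l with Gm6969 have the same mean height with and without H3.1K27M (138.6 and 138.7 CPM), whereas those of Ldhb with Gm5514 and of Atp6v0c with Atp6v0c-ps2 are taller with H3.1K27M.

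Since the 4 were chosen by H3.1K27M state, the effect of *ACVR1* R206H within each state was free of that choice and could be tested. With H3.1K27M, Atp6v0c-ps2 was the one called, at 53.5 ± 7.91 CPM with *ACVR1* R206H against 42.6 ± 1.47 CPM with *ACVR1* WT (SD, n = 3), higher in 3 of 3 samples. On the log2 scale the difference was 0.34 (SE 0.0863, adjusted p = 0.015 by the quasi-likelihood test of edgeR), beside 20.3% of 15672 genes called in this comparison, 11.4% higher and 8.95% lower. The samples with *ACVR1* R206H all lay above those with *ACVR1* WT for 18.4% of 15445 genes. Over the alternatives its adjusted p ran from 8.6e-07 to 0.097, and it was lost without replicate 2 (0.064) or 3 (0.052) of *ACVR1* WT with H3.1K27M and without replicate 3 of *ACVR1* R206H with H3.1K27M (0.071). Gm5514 (0.32, SE 0.133, adjusted p = 0.11), Gm6969 (0.50, SE 0.300, adjusted p = 0.28) and Gm13394 (0.14, SE 0.0671, adjusted p = 0.16) did not pass in edgeR's test, and their groups overlapped. In the same comparison 79 of the 491 other processed pseudogenes tested were called higher and 5 lower, with a median log2 fold change of 0.39 against 0.00138 over all genes. The number of genes with a count was 23840 to 25207 in *ACVR1* R206H with H3.1K27M and 23154 to 23961 in *ACVR1* WT with H3.1K27M, and its part, like that of the higher Acvr1 level, in the result for Atp6v0c-ps2 was not tested.

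Without H3.1K27M no gene was called by edgeR (0.0% of 15066 genes, 534 at an unadjusted p under 0.05), and DESeq2 called 25. Gm6969 (-0.03, adjusted p = 0.98), Gm5514 (0.66, adjusted p = 0.94) and Atp6v0c-ps2 (-0.06, adjusted p = 0.94) had overlapping groups, and Gm13394 had too few counts to be tested. Without replicate 1 of *ACVR1* WT, edgeR called 3485 genes, and the 3 still did not pass (adjusted p = 0.66 for Gm6969, 0.15 for Gm5514 and 0.80 for Atp6v0c-ps2). The difference between the R206H effects of both states, an interaction called for 0.0712% of 15445 genes, did not pass for Gm6969, Gm5514 or Atp6v0c-ps2 in edgeR's test (adjusted p = 0.55 to 0.79, with 1, Atp6v0c-ps2, at an unadjusted p under 0.05, and 0 called by DESeq2). For Gm13394 this difference was 0.63 on the log2 scale (SE 0.472, adjusted p = 0.77 in edgeR's test). It had at most 5 counts in each sample without H3.1K27M, so that this test can show little. No parent passed for R206H or for the interaction in edgeR or DESeq2, with Ldhb alone at an unadjusted p under 0.05, in the samples with H3.1K27M.

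**Figure D4:**
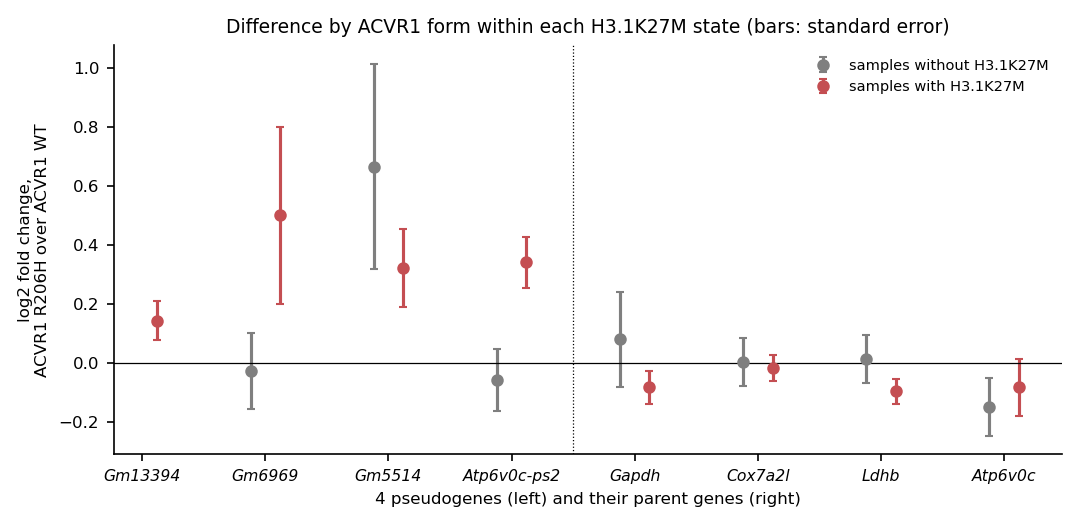
Log2 fold change of *ACVR1* R206H over *ACVR1* WT (bars, standard error) for the 4 pseudogenes and their parents, without H3.1K27M in grey and with it in red (3 against 3 samples each). Atp6v0c-ps2 with H3.1K27M (0.34) was the one value past the threshold, and Gm13394 has no grey point because it was not tested there.

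Other copies of the same parents were looked at for the same split. Gapdh had 183 further copies of at least 80% identity, of which 182 were in the count tables, 168 had a count and 6 had a mean of at least 10 counts. Of these 6, edgeR called 0 higher and 1 lower by H3.1K27M over both *ACVR1* forms, beside 26.1% and 27.5% of all genes (0 higher at an unadjusted p under 0.05 and 0 by DESeq2). The lower one was 3000002C10Rik (log2 fold change -0.41, adjusted p = 0.0093 in edgeR), and 6 genes are too few to set against these shares. All further copies of Gapdh together had 566, 912 and 1103 counts in replicates 1, 2 and 3 of *ACVR1* R206H with H3.1K27M, and 471 to 634 in the other 9 samples. The further copy of Cox7a2l had no count, that of Atp6v0c (Atp6v0c-ps1) had at most 2 counts in a sample without and 7 with H3.1K27M, and Ldhb had no further copy.

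Among other processed pseudogenes, 40 of 420 tested (9.52%) passed by H3.1K27M among the *ACVR1* WT samples against 23.0% of all genes, and 144 of 468 (30.8%) among the *ACVR1* R206H samples against 56.5%. Whether these shares differ from those of all genes was not tested. Over both forms Gm13394, Gm5514 and Gm6969 had the largest absolute log2 fold changes of the 447 processed pseudogenes tested and Atp6v0c-ps2 the seventh. Gm8116 (3.68), Gm13453 (-3.65) and Gm3555 came between them.

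A split as wide as that of the 4 was rare over all genes, as it had to be for genes chosen by it. All 6 samples with H3.1K27M lay above all 6 without for 16.5% of the 15445 genes, and below for 15.6%. The gap between the nearest samples of both states (in CPM, with 0.1 added) was 173-fold for Gm13394, which no other gene matched, and 13.9-fold for Gm6969, which 1 other gene, 4930481A15Rik, matched in its direction. For Gm5514 it was 16.1-fold with 8 other genes at least as wide, and for Atp6v0c-ps2 4.30-fold with 50. Another rule asked for at most 3 counts in each sample of one state and at least 10 in each of the other. By it, 26 genes on 13 chromosomes were present with H3.1K27M and 8 without, none of the 4 among them. Gm13394 fell outside this rule because it had up to 5 counts in a sample without H3.1K27M. Those present with H3.1K27M included Hist1h3a, Hist1h3i, the transcription factor Nkx2-1 (0 counts against 83 to 201), Cyyr1 and Oasl1, and 1 annotated pseudogene, H2-Q5 (0 to 2 counts against 15 to 22). Whether the reads of the histone genes Hist1h3a and Hist1h3i came from the H3.1K27M virus was not tested. Those present without H3.1K27M included Ripply1, 4930481A15Rik and the microglial genes C1qa, C1qc and Csf1r.

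The nearest genes on the chromosome were set beside each pseudogene. Of the 40 nearest tested genes, 5 on each side of each pseudogene, 24 were called by H3.1K27M (60%, or 57.5% without replicate 1 of *ACVR1* WT) beside 53.6% of all genes. Of these, 9 were higher and 15 lower, beside 26.1% and 27.5% of all genes. Around Gm13394, 3 of 10 were called and 0 of the 4 nearest (by edgeR; 1 at an unadjusted p under 0.05, 0 by DESeq2). Its host gene Cfap77, a cilia and flagella protein, had 0.519 ± 0.222 and 0.815 ± 0.213 CPM (SD, n = 6) without and with H3.1K27M, and did not pass (0.65 on the log2 scale, adjusted p = 0.093 in edgeR). Around Gm6969, 4 of 10 were called, all lower, the nearest being Klf11, a transcription factor at 12.3 kb (-0.73, SE 0.188, adjusted p = 0.0059), while Grhl1 at 21.3 kb on the other side did not pass (0.06, adjusted p = 0.55).

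Around Gm5514, 8 of 10 were called, 4 in each direction. Gda, a guanine deaminase 464 kb away, had 0 to 5 counts without and 56 to 115 with H3.1K27M, and was called (adjusted p = 2.7e-07 in edgeR). Its summed counts of 13 and 515, scaled for library size, gave a ratio of 33.9 (exact 95% interval 19.6 to 64.1), beside the 33.8 of Gm5514. The 3 genes between them differed far less, with Cemip2 at 0.45, Abhd17b at -0.13 and 1110059E24Rik at -0.13, the last of these not called. On the other side the ion channel gene Trpm3, 201 kb away, rose by 1.04. Around Atp6v0c-ps2, 9 of 10 were called, 4 higher and 5 lower, the 9 lying between -0.48 and 1.18, while Ybx1-ps2 (-0.56) did not pass. Apart from Gda, the largest absolute log2 difference among the 40 was that of Gm9493 near Gm5514 (-1.68).

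**Figure D5:**
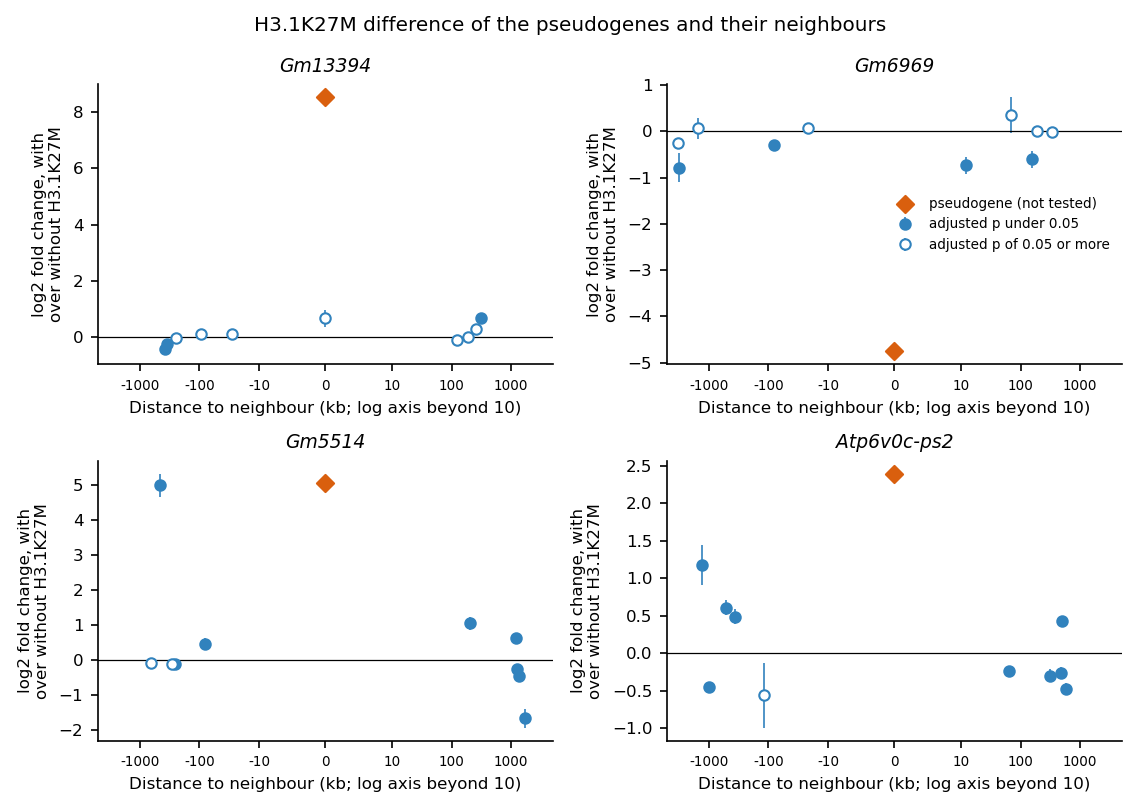
Log2 fold change with over without H3.1K27M (bars, standard error; 6 against 6 samples) of the 5 nearest tested genes on each side of each pseudogene, against distance in kb (linear within 10 kb, log beyond), filled where the adjusted p was under 0.05, with the pseudogene as an orange diamond at 0. All 40 lie nearer to 0 than their pseudogene, Gda at 464 kb from Gm5514 (4.99 beside 5.06) only just.

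The V-ATPase, which acidifies lysosomes and other compartments, is the pump that Atp6v0c belongs to. Of its 25 listed subunits and accessory genes 20 were tested by H3.1K27M over both *ACVR1* forms, and 11 were called higher and 3 lower, beside 26.1% and 27.5% of all genes, with a median log2 fold change of 0.14 against -0.02 over all genes. Those lower were Atp6v0c, Atp6v0e (-0.34) and Atp6v0e2 (-0.15), all of the membrane sector. Atp6v0b (0.56, adjusted p = 3.0e-07), a proteolipid of the same ring, and Atp6v0a2 (0.44, adjusted p = 1.1e-05) were among those higher.

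Of 6 listed genes that are known to differ between inbred mouse strains, and whose levels may also change for other reasons, H2-Q7, Glo1 and Wdfy1 were called higher with H3.1K27M over both *ACVR1* forms, beside 26.1% of all genes, and the other 3 had too few counts to be tested. H2-Q7, a class I histocompatibility gene whose family members are so alike that reads may be split between them, rose from 1.43 ± 0.512 to 9.81 ± 1.68 CPM (2.77 on the log2 scale, adjusted p = 6.9e-07). Glo1, whose copy number varies between strains, rose from 158 ± 9.88 to 246 ± 9.39 CPM (0.64, adjusted p = 5.4e-07), and Wdfy1 from 63.3 ± 5.57 to 95.3 ± 3.40 CPM (0.59, adjusted p = 1.2e-06). The 3 were called in each *ACVR1* form too, where 23.0% (*ACVR1* WT) and 56.5% (*ACVR1* R206H) of all genes were called, and none by R206H in either state (edgeR, 0 at an unadjusted p under 0.05, 0 by DESeq2). Nnt, which C57BL/6J mice carry as a broken gene, was at 0.453 and 0.460 CPM in the mean without and with H3.1K27M, and H2-Ea-ps and Entpd4 had no counts in any sample. Their part in the levels of the pseudogenes was not tested.

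Markers of the cells showed both shared and differing makeup. Xist and the Y-linked genes Ddx3y, Eif2s3y, Kdm5d and Uty were detected in all 12 samples, and Xist was called lower with H3.1K27M (from 794 ± 84.0 to 589 ± 91.9 CPM, adjusted p = 0.0046). Of the 4 Y-linked genes, Ddx3y (0.37 on the log2 scale) and Eif2s3y (0.32) were called higher, while Kdm5d (-0.14, adjusted p = 0.13) and Uty (-0.01, adjusted p = 0.93) did not pass, beside 53.6% of all genes called. The neural progenitor markers Nes, Sox2, Hes1, Fabp7 and Vim summed to 3605 to 5212 CPM without and 4587 to 5595 CPM with H3.1K27M, so that the labelled cell type had its markers in each sample, and Hes1 and Vim were called higher and Sox2 lower. The 4 microglial markers summed to 2.42 to 9.19 CPM without and 1.06 to 2.58 CPM with H3.1K27M, and 3 of them, Cx3cr1, Csf1r and Aif1, had at most 3 counts in each sample with it, while P2ry12 had 19 to 67. The oligodendrocyte lineage markers summed to 807 to 931 CPM without and 930 to 1206 CPM with it, and Olig2 and Mbp were called higher. The astrocyte markers summed to 1197 to 8629 CPM without and 1128 to 1943 CPM with it, and Gfap (-1.81, adjusted p = 0.0023) and Aqp4 (-1.44, adjusted p = 0.011) were called lower but S100b (0.50, adjusted p = 0.0036) higher. Gfap had 346, 1419 and 2674 CPM in replicates 1, 2 and 3 of *ACVR1* WT and 264 to 476 CPM in the samples with H3.1K27M, so that replicate 1 of *ACVR1* WT lay within the range of the latter. The neuron markers summed to 5.07 to 6.55 CPM without and 5.81 to 10.95 CPM with H3.1K27M, and among them Rbfox3 was called higher over both forms (0.457 ± 0.173 and 1.75 ± 0.183 CPM, adjusted p = 1.1e-05 in edgeR) while Snap25 and Syt1 did not pass. Markers of fibroblasts and pericytes summed to 1.42 to 2.57 CPM without and 2.99 to 5.91 CPM with H3.1K27M, with no overlap, and Col1a1 was called higher (1.07, adjusted p = 0.00017). Markers of endothelium summed to 1.12 to 1.85 CPM without and 0.999 to 3.96 CPM with H3.1K27M, and Cldn5 and Pecam1 had too few counts to be tested. Kdr was called higher over both forms (0.71, adjusted p = 0.033 in edgeR). By form, it was called with *ACVR1* R206H (1.28, adjusted p = 0.0012) but not with *ACVR1* WT (0.10, adjusted p = 0.83). Those of red blood cells were at 0. In replicates 1, 2 and 3 the microglial sum was 2.42, 6.38 and 9.19 CPM in *ACVR1* WT, beside 36.3, 33.7 and 26.2 CPM of Gm6969, and 2.70, 3.62 and 4.60 CPM in *ACVR1* R206H, beside 30.7, 31.7 and 31.4 CPM of Gm6969. The part of any of these cell types in the values of the pseudogenes was not tested.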

How the data were processed

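RNA of 12 samples of cultured cells was sequenced as paired ends. Per the study's methods and the submitters' processing notes, the authors aligned reads to mm10 with RNA-STAR 2.6.0b-1 and deposited raw counts per Ensembl gene and sample from HTSeq-count (union mode, no strand, minimum alignment quality 10, reads with several matches not counted), not normalized or pooled. Reads that fit a pseudogene and its parent equally were therefore lost to both.

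Groups and replicate numbers came from the labels. Comparisons used edgeR 4.0.16 (R 4.3.3, quasi-likelihood test, TMM, mean normalized count of at least 10, Benjamini-Hochberg threshold 0.05) on the 6 samples of each pair of groups, or all 12 for the interaction and for H3.1K27M over both forms. DESeq2 1.42.0, other size factors, no filter, a replicate block, 1 fit of all samples and leaving out each sample were alternatives. In counts simulated for these comparisons edgeR recovered 46.5% to 88.5% of 200 genes changed by 1 on the log2 scale. Parents were found with BLAST 2.17.0 against GENCODE M21 transcripts, and of the 54532 genes 54409 had a symbol there. Promoter and protein sequences of the 4 were not analysed here.

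Named were the 4 pseudogenes, their parents, other copies, the 5 nearest tested genes on each side, the 3 most alike genes, the most abundant genes with the all-or-none pattern, and fixed lists. The members and lists were chosen with earlier results of these data known. Gm8116, Gm13453, Gm3555, H2-Q5 and Atp6v0c-ps1 were named after their values were seen. With 3 samples against 3, the exact two-sided p of 1 gene cannot fall below 0.1.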

Additional observations from a re-analysis of the deposited data

How the results depend on the processing

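The split of the 4 pseudogenes by H3.1K27M kept its direction in every fit run. Counts of genes called moved more. By H3.1K27M with *ACVR1* WT, 3533 genes were called, 6335 in 1 fit of all 12 samples, 2023 with the replicate block, and 1037 to 8115 without 1 replicate, the highest without replicate 1 of *ACVR1* WT. By R206H with H3.1K27M, 3185 were called, 440 in 1 fit of all samples, and 1915 to 2966 without 1 replicate. By R206H without H3.1K27M, 0 were called, 25 with DESeq2, 11 in 1 fit of all samples, and 0 to 3485 without 1 replicate, the highest again without replicate 1 of *ACVR1* WT. For the interaction, 11 were called, 95 with DESeq2, 18 with no filter, 2 with the replicate block, and 3 to 4112 without 1 replicate. The cause was not tested. Genes with the all-or-none pattern numbered 26 with and 8 without H3.1K27M, 9 and 3 when present meant at least 20 counts, and 5 and 0 when absent meant 0 counts, by construction. Processed pseudogenes called by H3.1K27M with *ACVR1* R206H rose from 148 to 321 with no filter, which tests more genes.

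Same-numbered replicates did not deviate together in every pair of groups (correlations from -0.115 to 0.325), and a sample correlated best with its own number in 19 of 36 comparisons with another group, with 3 candidates each. The labels do not say what the numbers mark, and they were not taken as pairs. The replicate block left the call of Atp6v0c-ps2 by R206H (adjusted p = 0.014) and took that of Atp6v0c by H3.1K27M with *ACVR1* WT (adjusted p = 0.052), and changed no other call of the pseudogenes or their parents. Of all values for single genes, 15 lost and 4 gained a call under an alternative. Gm5514 passed by R206H with H3.1K27M with no filter (adjusted p = 0.0013) and without replicate 1 of *ACVR1* R206H with H3.1K27M (0.0018), and Gm13394 without replicate 1 of *ACVR1* WT with H3.1K27M (0.048). Atp6v0c-ps2 lost its call in 1 fit of all samples (0.097). Depth limits Gm13394 without H3.1K27M, which rests on 22 reads in 6 samples.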
